A study of Mus musculus with 2 samples.

Results

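The genes described here are the ADAMTS and ADAMTS-like proteins, matrix metalloproteinases, tissue inhibitors of metalloproteinases, HTRA serine proteases and lysyl oxidases of the mouse liver. They were chosen by name, as every symbol of the table that starts with Adamts, Mmp, Timp, Htra or Lox followed by a digit, by l or by the end of the symbol, which gave 54 of 22508 genes: 19 Adamts, 5 Adamtsl, 17 Mmp, 4 Timp, 4 Htra and 5 Lox genes. Single cells of untreated wild-type (WT) C57BL/6 livers, from mice 8 weeks old, were freed with enzymes, cleaned on a Percoll gradient and profiled by droplet-based 3′ sequencing in 2 samples, WT replicate 1 and WT replicate 2. There is no other group, and whether the samples are from different mice is not stated. Each molecule gives 1 tag with a unique molecular identifier (UMI), so levels need no scaling by gene length and are given as counts per 1000000 UMIs of a cell type (CPM).

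Cell types were set by gates on marker UMIs that include none of the 54 genes. The gates named 17 types with at least 20 cells, together 8276 of 9106 cells kept. Stellate-like cells, the vitamin A-storing pericytes of the sinusoid, came from replicate 2 (2340 cells, 11857869 UMIs), and all 16 other types came from replicate 1, so a difference between stellate-like cells and any other type cannot be told apart from a difference between the libraries. Replicate 1 held 8 stellate-like cells with 60676 UMIs, whose values are given beside the results that stellate-like cells lead. The types of replicate 1 held between 22 plasmacytoid dendritic-like and 2518 Kupffer-like cells, and between 65847 UMIs in neutrophil-like and 13539723 UMIs in sinusoidal endothelial-like cells. All markers in the table were above 3 UMIs in their type. In 10 types every listed marker was highest in its own type. In the other 7 at least 1 was higher elsewhere, such as Cd4 in T-like, Krt7 and Cftr in cholangiocyte-like, Zbtb46 and Ccr7 in conventional dendritic-like, Ly6c2 in monocyte-like and Gja4, Ltbp4 and Hey1 in portal and arterial endothelial-like cells. With each type in 1 library no test between types was possible, and intervals are exact 95% intervals that cover counting error only. A count of 3 UMIs was taken as the limit that a 0 allows, which is 0.222 CPM in sinusoidal endothelial-like cells but 45.6 CPM in neutrophil-like cells. RNA free in the droplets was not subtracted, and its part in low levels was not tested. The 2 libraries shared 5 cell barcodes.

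Extracellular matrix is cut by zinc metalloproteinases, which are secreted or held at the cell surface as inactive precursors, and the TIMP proteins bind their active sites. ADAMTS proteases trim procollagens, cut the large proteoglycans aggrecan and versican, or cut von Willebrand factor, while ADAMTS-like proteins lack the protease domain and bind microfibrils. HTRA1, HTRA3 and HTRA4 are secreted serine proteases and HTRA2 is mitochondrial. Lysyl oxidases work in the other direction, since they crosslink collagen and elastin. In the liver, stellate cells and portal fibroblasts are the best-known mesenchymal sources of this machinery, and macrophages and neutrophils carry metalloproteinases of their own.

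Portal fibroblast-like cells (92 cells) had the most of these genes above 3 UMIs. Of the 54 genes, 38 were above 3 UMIs there, 35 in stellate-like, 31 in mesothelial-like, 30 in Kupffer-like and 30 in sinusoidal endothelial-like cells, and 0 in the 28 B-like cells, whose depth was low. These counts depend on depth. A count of 3 UMIs is 4.60 CPM in portal fibroblast-like, 0.253 in stellate-like, 0.251 in Kupffer-like and 0.222 in sinusoidal endothelial-like cells. The share of all genes above 3 UMIs in each type was not counted. Of the 54 genes, 51 were above 3 UMIs in at least 1 type. For 41 genes with at least 50 UMIs over all types, the leading type was compared with every other type, and a gene was counted as led by a type when it was at least 2-fold above each of the others with at least 20 UMIs. This held for 19 of 41 genes, against 16.5% of all 14817 genes with as many UMIs. The minimum of 50 UMIs includes those of the leading type, so a gene could pass it through that type alone. Examples are Mmp7 (50 of 50 UMIs), Mmp3 (66 of 76), Mmp8 (69 of 77), Mmp27 (277 of 281) and Adamts13 (785 of 786). The share of all genes was counted by the same rule, and how far the rule raises either number was not tested. Portal fibroblast-like cells led 10 of the 41, against 1.09% of all genes. Stellate-like cells led 2 (1.9% of all genes), cholangiocyte-like cells 2 (1.97%), neutrophil-like cells 2 (0.533%), and Kupffer-like, portal and arterial endothelial-like and sinusoidal endothelial-like cells 1 each (1.22%, 0.351% and 0.857%). The 10 other types led 0 of the 41, although they led 4.38% (hepatocyte), 1.56% (mesothelial), 0.614% (plasmacytoid dendritic), 0.452% (lymphatic endothelial), 0.398% (T), 0.324% (conventional dendritic), 0.229% (NK and ILC1), 0.223% (monocyte), 0.209% (central vein endothelial) and 0.142% (B) of all genes. By family these were 6 of 12 Adamts, 2 of 5 Adamtsl, 7 of 13 Mmp, 0 of 3 Timp, 1 of 3 Htra and 3 of 5 Lox genes. Where types with 0 UMIs were set to 3 UMIs, 13 genes were left, against 10.7% of all genes, and Adamts12, Adamts13, Adamts4, Adamts7, Mmp27 and Mmp7 were not among them. With every cell thinned to 1500 UMIs, 9 were left, against 10.6% of all genes.

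**Figure D1:**
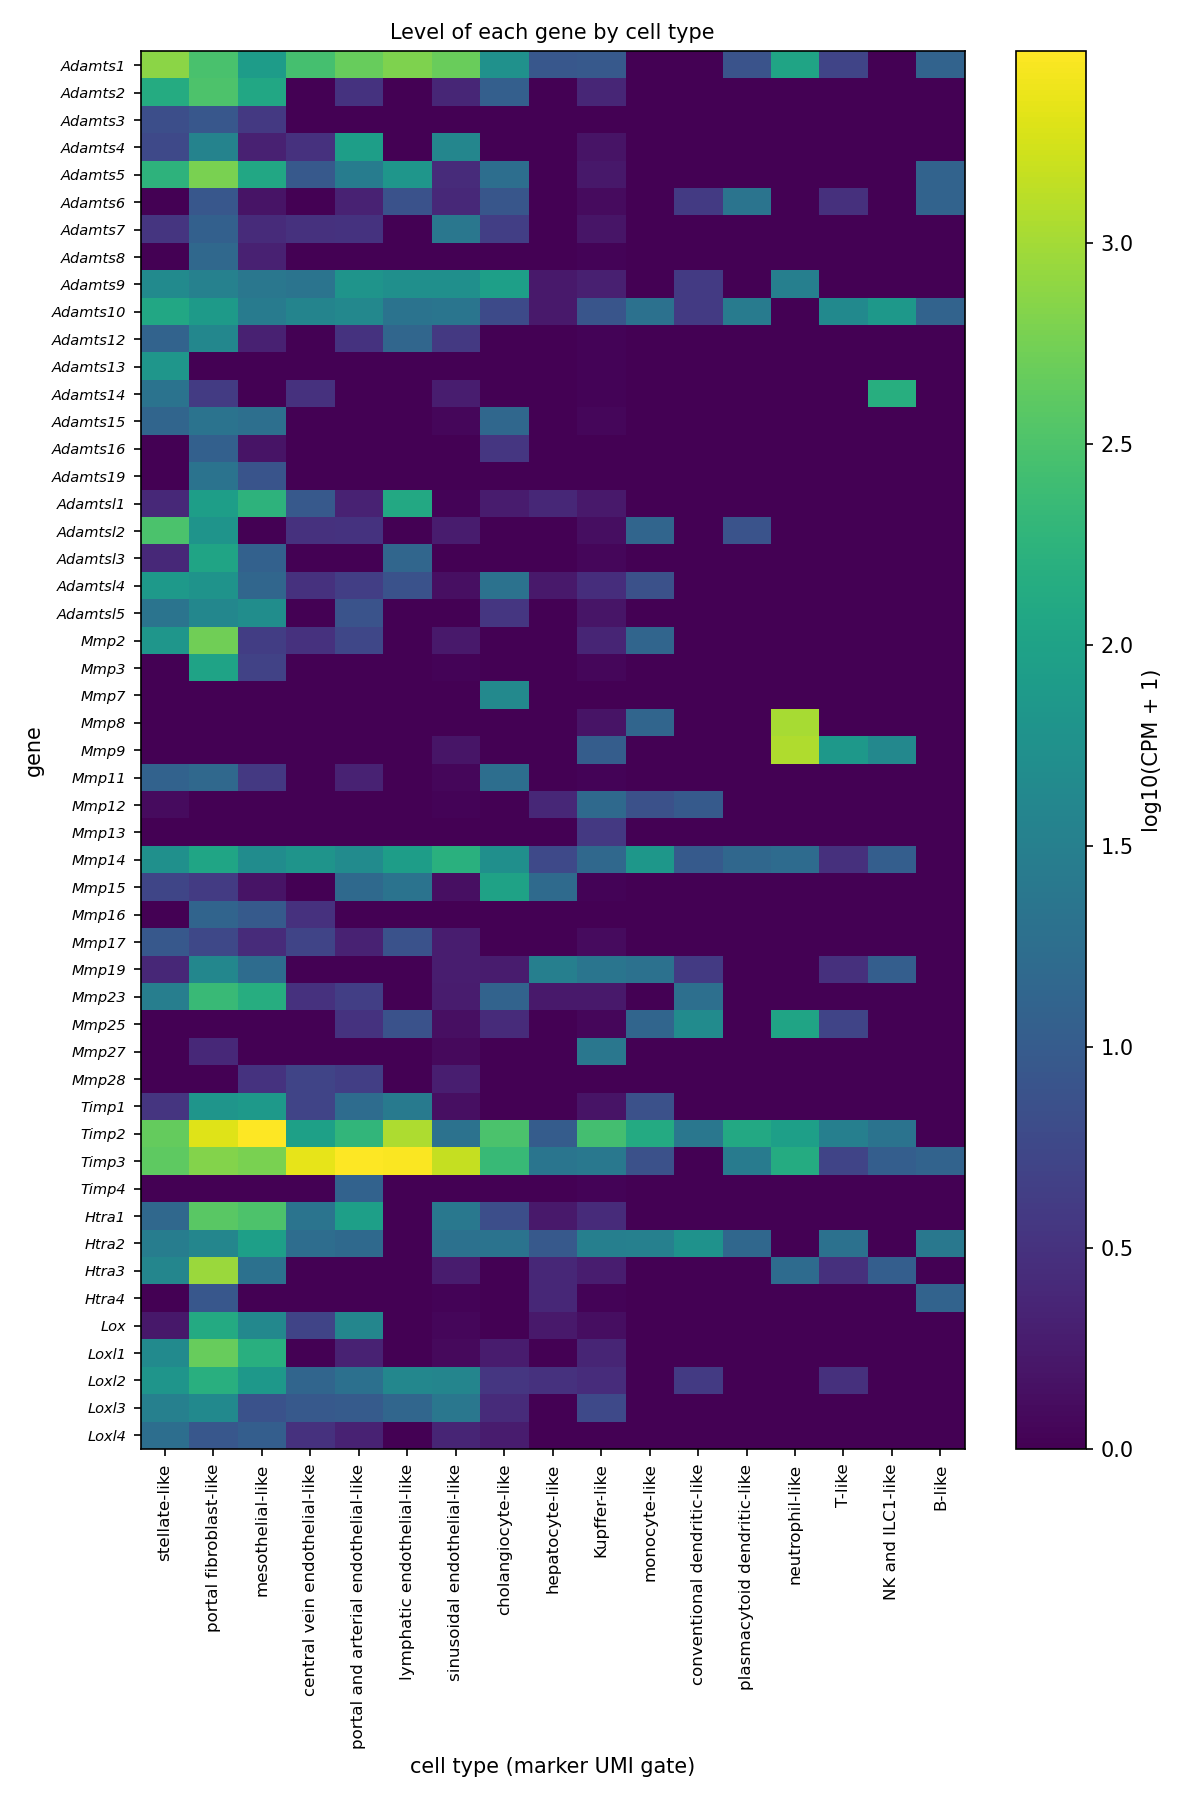
Level of the 51 genes above 3 UMIs in at least 1 type (rows, by family) in the 17 cell types (columns), as log10 of CPM + 1, with UMIs summed over the cells of a type in 1 library. The portal fibroblast-like column holds 38 genes above 3 UMIs and the B-like column holds 0.

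Stellate-like cells led a pair of genes that are neighbours on chromosome 2. Adamts13, the protease that cuts von Willebrand factor into smaller multimers, stood at 66.2 CPM (61.7 to 71.0, 785 UMIs) in stellate-like cells of replicate 2, against 1 UMI in Kupffer-like cells (0.0838 CPM) and 0 UMIs in the 15 other types. The ratio to Kupffer-like cells was 790 (141 to 31257). In the 8 stellate-like cells of replicate 1 there were 2 UMIs of Adamts13, 33.0 CPM (3.99 to 119). Adamtsl2, whose protein binds fibrillin and carries mutations in the human disorder geleophysic dysplasia, stood at 313 CPM (303 to 324) in stellate-like cells of replicate 2, against 61.4 CPM (43.9 to 83.6) in portal fibroblast-like cells, a ratio of 5.11 (3.74 to 7.16). All other types held at most 11 UMIs of Adamtsl2, and the mesothelial-like cells 0. The 8 stellate-like cells of replicate 1 held 4 UMIs, 65.9 CPM (18.0 to 169), which lies below the level of replicate 2 and near that of the portal fibroblast-like cells.

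In the GENCODE vM21 annotation of GRCm38, Adamts13 lies at chr2:26973416-27009628 and Adamtsl2 at chr2:27079379-27108981, both on the + strand and 69.8 kb apart. Of the 3 coding genes between them, Cacfd1 stood at 13.4 CPM in stellate-like cells and was highest in NK and ILC1-like cells (50.4 CPM), Slc2a6 had 0 UMIs in stellate-like cells, and Mymk had 3 UMIs, all in stellate-like cells and too few to be compared. The promoters of the pair are shown because the genes share a leading cell type. Each runs from 250 bases before to 50 after the RefSeq start (GRCm38.p6, + strand; Adamts13 at chr2:26973166-26973465 and Adamtsl2 at chr2:27079129-27079428), with capitals at a GC box (GGGCGG on either strand) or a TATA box (TATAAA on either strand).
Adamts13: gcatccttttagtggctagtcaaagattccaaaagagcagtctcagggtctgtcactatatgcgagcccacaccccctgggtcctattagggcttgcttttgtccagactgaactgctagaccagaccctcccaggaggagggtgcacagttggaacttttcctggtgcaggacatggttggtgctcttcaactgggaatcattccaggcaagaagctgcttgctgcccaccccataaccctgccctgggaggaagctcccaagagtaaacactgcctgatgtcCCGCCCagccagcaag
Adamtsl2: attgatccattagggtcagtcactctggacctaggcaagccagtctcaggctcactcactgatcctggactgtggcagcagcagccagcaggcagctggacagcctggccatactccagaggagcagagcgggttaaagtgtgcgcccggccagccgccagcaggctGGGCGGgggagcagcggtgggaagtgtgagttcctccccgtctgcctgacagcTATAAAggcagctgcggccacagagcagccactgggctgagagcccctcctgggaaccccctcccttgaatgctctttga
The Adamts13 window held 1 GC box, at base 35 after the start. The Adamtsl2 window held 1 GC box and 1 TATA box 30 bases before the start. Of 27025 genes in the RefSeq table, 38.2% held a GC box and 15.7% a TATA box in any of their listed promoters, as did 23 and 7 of the 33 of these 54 genes with a promoter there.

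The genes led by portal fibroblast-like cells included proteases, a protease-free relative and crosslinkers. Among the proteases, Htra3, a secreted serine protease, reached 893 CPM (822 to 969) in portal fibroblast-like cells, against 39.0 CPM (35.5 to 42.7) in stellate-like cells, a ratio of 22.9 (20.3 to 26.0). Mmp2, the gelatinase of mesenchymal cells, reached 523 CPM (469 to 582), against 66.4 CPM (61.8 to 71.2) in stellate-like cells, a ratio of 7.88 (6.92 to 8.96). Stellate-like cells were thus the next type for both genes, and without replicate 2 the log2 ratio to the next type was 5.55 for Htra3 and 5.39 for Mmp2.

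Mmp3, the stromelysin that cuts proteoglycans and activates other metalloproteinases, had 66 UMIs in portal fibroblast-like cells (101 CPM, 78.3 to 129), against 7 UMIs in mesothelial-like cells (3.82 CPM) and 0 in stellate-like cells of replicate 2. Adamts5, an aggrecanase and versicanase, reached 595 CPM (538 to 658), against 178 CPM (171 to 186) in stellate-like cells, 3.34-fold. The 8 stellate-like cells of replicate 1 held 65.9 CPM of Adamts5 (18.0 to 169), below the level of replicate 2. Adamts2, which removes the N-terminal propeptides of fibrillar procollagens, reached 324 CPM (282 to 371), against 137 CPM (130 to 144) in stellate-like cells, 2.36-fold, and stood under 2-fold (log2 0.85) with a stricter gate. Adamts12 had 26 UMIs in portal fibroblast-like cells (39.9 CPM), against 2 UMIs in lymphatic endothelial-like cells (13.2 CPM), a ratio of 3.02 whose interval (0.757 to 26.3) holds 1. Adamtsl3, a protease-free relative, reached 107 CPM (83.7 to 136), against 2 UMIs in lymphatic endothelial-like cells (13.2 CPM), 8.14-fold (2.17 to 68.5).

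Portal fibroblast-like cells led 3 of the 5 lysyl oxidases, Lox, Loxl1 and Loxl2, against 1.09% of all genes. Loxl1, the elastin crosslinker, reached 457 CPM (407 to 512) in portal fibroblast-like cells, against 156 CPM (138 to 175) in mesothelial-like and 44.8 CPM in stellate-like cells, 2.93-fold the mesothelial level. Lox, the founding collagen crosslinker, reached 132 CPM (106 to 163), against 40.9 CPM (32.2 to 51.3) in mesothelial-like cells, 3.23-fold, and it had 34 UMIs in portal and arterial endothelial-like cells (38.1 CPM) but only 8 in stellate-like cells (0.675 CPM). Stellate-like cells, low in Lox, held the 4 other members at 17.1 CPM (Loxl4) to 64.1 CPM (Loxl2). Loxl2 reached 153 CPM (125 to 187) in portal fibroblast-like cells, against 71.4 CPM (59.7 to 84.8) in mesothelial-like cells, 2.15-fold, and its order turned with cells thinned to 1500 UMIs (log2 -0.061). With thinned cells Lox was not counted as led by a type either. Loxl3 stood at 43.0 CPM in portal fibroblast-like and 31.2 CPM in stellate-like cells, a ratio of 1.38 whose interval (0.902 to 2.02) holds 1. Loxl4 was highest in stellate-like cells, at 17.1 CPM, against 9.82 CPM in mesothelial-like cells.

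**Figure D2:**
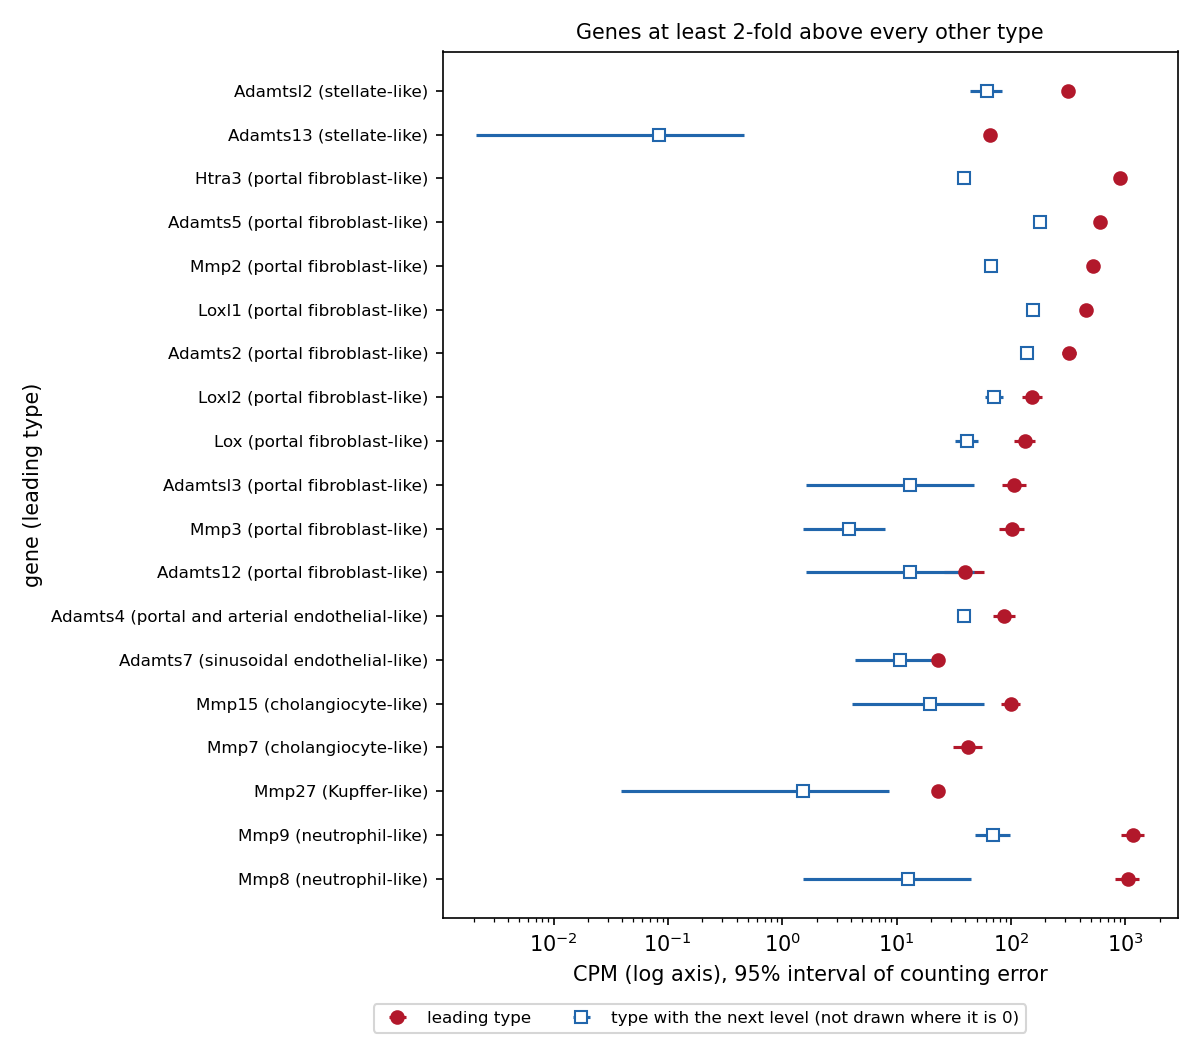
Level of the 19 genes led by 1 cell type (rows), in CPM on a log axis, with exact 95% intervals of counting error. Filled points are the leading type and open squares the type with the next level. Mmp7 has no square, since it had 0 UMIs in the 16 other types, and the squares of Adamts13 and Mmp27 rest on 1 UMI each.

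Adamts1, Adamts4, Adamts7, Adamts9 and Adamts15 were each highest in a different type. Adamts1, which cuts versican and is also known to be induced by injury, was the highest of the 54 genes in stellate-like cells, at 749 CPM (734 to 765) in replicate 2 and 461 CPM (307 to 667) in the 8 cells of replicate 1. Lymphatic endothelial-like cells had 627 CPM, sinusoidal endothelial-like cells 483, portal and arterial endothelial-like cells 458, portal fibroblast-like cells 301 and central vein endothelial-like cells 280, so no type led it 2-fold. In lymphatic endothelial-like cells 48 of the 95 UMIs of Adamts1 came from 1 cell, and without it the level was 370 CPM (272 to 493), below those of sinusoidal and of portal and arterial endothelial-like cells. Adamts9 was highest in cholangiocyte-like cells, at 89.4 CPM (73.2 to 108), next to 61.7 CPM in portal and arterial endothelial-like and 52.4 CPM in sinusoidal endothelial-like cells. Adamts4, an aggrecanase like Adamts5, had a narrower range. It reached 87.5 CPM (69.2 to 109) in portal and arterial endothelial-like cells, against 38.9 CPM (35.7 to 42.4) in sinusoidal endothelial-like cells, 2.25-fold (1.75 to 2.86). The stellate-like cells differed between libraries for this gene, with 6 UMIs (98.9 CPM, 36.3 to 215) in the 8 cells of replicate 1 and 4.81 CPM in replicate 2, and with the cells of replicate 1 the order turned (log2 -0.18). Adamts7 was led by sinusoidal endothelial-like cells, at 22.9 CPM (20.4 to 25.6), against 10.7 CPM (7 UMIs) in portal fibroblast-like cells, 2.13-fold (1.02 to 5.35). Adamts15 stayed between 12.6 and 19.9 CPM in stellate-like, cholangiocyte-like, mesothelial-like and portal fibroblast-like cells.

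Adamts10, which acts on fibrillin microfibrils, was highest in stellate-like cells, at 119 CPM (113 to 126), and also stood at 76.7 CPM in portal fibroblast-like, 70.6 CPM in NK and ILC1-like and 43.4 CPM in T-like cells. The 8 stellate-like cells of replicate 1 held 4 UMIs of Adamts10, 65.9 CPM (18.0 to 169), below the portal fibroblast-like level. Adamts10 was among the 2 highest of the 54 genes in T-like cells. Of the other procollagen N-proteinases, Adamts3 was low, with 7.67 CPM in portal fibroblast-like cells and 5.90 CPM in stellate-like cells. Adamts14, singled out after its values were seen, was highest per UMI in the 34 NK and ILC1-like cells, at 151 CPM (84.7 to 250), from 15 UMIs in 13 cells with at most 2 in any cell. Stellate-like cells held 19.8 CPM (17.4 to 22.5), 225 of 2340 cells having a UMI (9.62%), while the 121 T-like cells held 0 UMIs. Since it had fewer than 20 UMIs in its leading type, Adamts14 was not counted above. The protease-free relatives had several sources. Adamtsl1 was highest in mesothelial-like cells (174 CPM) and next in lymphatic endothelial-like cells (125 CPM). Adamtsl4, a fibrillin-binding protein, had 72.7 CPM in stellate-like cells and a close 59.8 CPM in portal fibroblast-like cells. In the 8 stellate-like cells of replicate 1 it had 2 UMIs, 33.0 CPM (3.99 to 119). Adamtsl5 stood at 49.6 CPM in mesothelial-like and 39.9 CPM in portal fibroblast-like cells.

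The metalloproteinases outside the mesenchyme were split among blood cells, macrophages and bile duct. Mmp9, the gelatinase of leukocytes, reached 1169 CPM (923 to 1461, 77 UMIs) in the 27 neutrophil-like cells, against 70.2 CPM (48.6 to 98.1) in T-like cells, 16.7-fold (11.0 to 25.7). Mmp8, the neutrophil collagenase, reached 1048 CPM (815 to 1326, 69 UMIs) in neutrophil-like cells, against 2 UMIs in monocyte-like cells (12.5 CPM), 83.8-fold (22.3 to 706). Of the 69 UMIs, 36 came from 1 cell, and without it Mmp8 stood at 538 CPM (370 to 756) in neutrophil-like cells, with fewer than 50 UMIs left over all types. Mmp9 was the highest of the 54 genes in T-like cells. Kupffer-like cells led Mmp27, at 23.2 CPM (20.5 to 26.1, 277 UMIs), against 1 UMI in portal fibroblast-like cells (1.53 CPM), a ratio of 15.1 (2.69 to 599). Mmp12, the macrophage elastase, had 174 of its 184 UMIs in the types compared in Kupffer-like cells (14.6 CPM), 60 of them in 1 cell, but 3 UMIs in the 30 conventional dendritic-like cells came to 8.69 CPM. The 33 UMIs of the collagenase Mmp13 in the types compared were all in Kupffer-like cells, too few to be compared, and 35 more were in the 433 ungated cells. Mmp7, or matrilysin, an epithelial protease, had all its 50 UMIs in the types compared in the 72 cholangiocyte-like cells (42.1 CPM, 31.3 to 55.6). The ungated cells held another 27 UMIs of Mmp7 (11.7 CPM), 20 of them in 1 cell. Mmp15, a membrane-anchored protease, reached 99.5 CPM (82.3 to 119) in cholangiocyte-like cells, against 3 UMIs in lymphatic endothelial-like cells (19.8 CPM), 5.03-fold (1.68 to 24.7).

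6 of these metalloproteinases lie in 1 cluster on chromosome 9, and they were not all highest in the same type. In order along the chromosome these were Mmp13 and Mmp12 (Kupffer-like), Mmp3 (portal fibroblast-like), Mmp8 (neutrophil-like), Mmp27 (Kupffer-like) and Mmp7 (cholangiocyte-like). The coding gene Mmp10 lies between Mmp3 and Mmp8, and Mmp20 between Mmp27 and Mmp7. Mmp8 at chr9:7558456-7568485 and Mmp27 at chr9:7571396-7581885 are 2.91 kb apart. Mmp8 had 69 UMIs in neutrophil-like (1048 CPM) and 6 in Kupffer-like cells (0.503 CPM). Mmp27 had 277 UMIs in Kupffer-like (23.2 CPM) and 0 in neutrophil-like cells, a depth at which up to 45.6 CPM is allowed. Whether Mmp27 is lower in neutrophil-like than in Kupffer-like cells thus cannot be told. The promoters of the 6 genes are shown because the genes share a locus but were not all highest in 1 cell type. They are in the same window and build as above, all on the + strand. Capitals mark the AP-1 motif TGANTCA or the TATA box TATAAA on either strand. The windows are chr9:7272264-7272563 for Mmp13, chr9:7347124-7347423 for Mmp12, chr9:7445572-7445871 for Mmp3, chr9:7558179-7558478 for Mmp8, chr9:7571146-7571445 for Mmp27 and chr9:7691840-7692139 for Mmp7, and for Mmp12 and Mmp7, with 2 listed starts each, the one whose window holds a motif is given.
Mmp13: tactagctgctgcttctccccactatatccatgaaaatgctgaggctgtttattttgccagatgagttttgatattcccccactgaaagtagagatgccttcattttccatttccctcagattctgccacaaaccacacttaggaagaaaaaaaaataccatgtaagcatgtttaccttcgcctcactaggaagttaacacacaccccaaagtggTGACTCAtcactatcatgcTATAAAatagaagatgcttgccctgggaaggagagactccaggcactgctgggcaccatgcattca
Mmp12: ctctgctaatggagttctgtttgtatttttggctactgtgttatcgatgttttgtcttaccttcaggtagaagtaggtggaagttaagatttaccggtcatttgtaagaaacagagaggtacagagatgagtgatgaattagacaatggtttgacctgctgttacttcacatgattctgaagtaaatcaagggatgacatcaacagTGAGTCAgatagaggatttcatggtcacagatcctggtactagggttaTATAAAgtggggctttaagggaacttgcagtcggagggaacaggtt
Mmp3: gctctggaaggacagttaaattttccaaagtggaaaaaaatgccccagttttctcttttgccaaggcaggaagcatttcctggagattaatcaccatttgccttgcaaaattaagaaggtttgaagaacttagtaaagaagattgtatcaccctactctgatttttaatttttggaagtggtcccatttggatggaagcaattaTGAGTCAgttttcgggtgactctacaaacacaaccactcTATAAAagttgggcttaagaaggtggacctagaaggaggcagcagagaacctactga
Mmp8: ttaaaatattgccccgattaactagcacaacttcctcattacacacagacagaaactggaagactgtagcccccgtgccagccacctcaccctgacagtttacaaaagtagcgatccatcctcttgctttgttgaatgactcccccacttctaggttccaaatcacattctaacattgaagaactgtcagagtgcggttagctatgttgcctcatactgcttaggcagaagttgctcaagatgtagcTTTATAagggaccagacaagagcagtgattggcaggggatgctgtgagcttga
Mmp27: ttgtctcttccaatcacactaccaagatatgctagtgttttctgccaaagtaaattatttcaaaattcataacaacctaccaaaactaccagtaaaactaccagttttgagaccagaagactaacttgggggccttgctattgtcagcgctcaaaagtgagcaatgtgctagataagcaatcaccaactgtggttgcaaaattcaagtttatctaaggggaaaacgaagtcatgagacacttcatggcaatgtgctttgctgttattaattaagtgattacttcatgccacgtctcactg
Mmp7: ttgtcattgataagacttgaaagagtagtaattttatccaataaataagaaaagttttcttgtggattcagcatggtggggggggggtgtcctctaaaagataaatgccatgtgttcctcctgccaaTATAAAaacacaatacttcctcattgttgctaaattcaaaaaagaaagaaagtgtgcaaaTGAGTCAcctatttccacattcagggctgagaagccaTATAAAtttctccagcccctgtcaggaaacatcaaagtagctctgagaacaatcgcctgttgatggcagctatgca
The AP-1 letters stood in the windows of Mmp13, Mmp12, Mmp3 and Mmp7 and in no other of the 33 genes with a promoter in the table, against 8.97% of all 27025 genes in the table with such letters in any of their listed promoters. The letters TATAAA stood in each of the 6 windows except that of Mmp27, but at differing places. Counted from the start, they lay at base -16 in Mmp13, 5 in Mmp12, -7 in Mmp3 and -3 in Mmp8. Mmp7 held 2 sites, both before the start, and the nearer lay at a distance close to that in Adamtsl2. Whether any of these sites acts as a TATA box was not tested. The other listed windows of Mmp12 and Mmp7 held neither motif, so motif letters in the windows shown follow from the choice of window. Of the 4 genes whose windows held AP-1 letters, Mmp3 was led by portal fibroblast-like and Mmp7 by cholangiocyte-like cells, Mmp12 was led by no type and Mmp13 was not compared.

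The remaining metalloproteinases were broad or low. Mmp14, the membrane-type protease that activates Mmp2, was the metalloproteinase with most UMIs (3307 over all types). It stood at 159 CPM (152 to 166) in sinusoidal endothelial-like and 110 CPM (86.4 to 139) in portal fibroblast-like cells, and between 46.0 and 85.8 CPM in stellate-like, mesothelial-like, cholangiocyte-like, monocyte-like and the other endothelial types. Mmp23 followed the mesenchyme, with 229 CPM (193 to 268) in portal fibroblast-like, 144 CPM in mesothelial-like and 29.3 CPM in stellate-like cells. Mmp19 was highest in portal fibroblast-like cells (39.9 CPM) and was the highest of the 54 genes in hepatocyte-like cells, at 30.3 CPM (21.9 to 40.8, 43 UMIs), next to 21.3 CPM in Kupffer-like cells. Mmp11 stayed at 11.4 to 16.9 CPM in stellate-like, portal fibroblast-like and cholangiocyte-like cells, and Mmp17, which is anchored by a lipid, had 95 of its 120 UMIs in the types compared in stellate-like cells (8.01 CPM).

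The tissue inhibitors were the highest of these genes in endothelial and mesothelial types, and each had its own distribution. Timp3, the inhibitor that stays bound to the matrix, was highest in the 4 endothelial types. It stood at 2904 CPM (2793 to 3018) in portal and arterial, 2870 CPM (2607 to 3153) in lymphatic, 2232 CPM in central vein and 1474 CPM (1453 to 1494) in sinusoidal endothelial-like cells. The intervals of the portal and arterial and the lymphatic type overlap. Portal fibroblast-like cells followed at 678 CPM, mesothelial-like at 590 and stellate-like at 408, while Kupffer-like cells held 23.5 CPM, hepatocyte-like cells 21.2 CPM and T-like cells 4.13 CPM.

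Timp2, which inhibits metalloproteinases and also takes part in the activation of Mmp2 by Mmp14, was highest in mesothelial-like and fibroblast-like cells. It stood at 2989 CPM (2911 to 3069) in mesothelial-like, 2012 CPM (1904 to 2124) in portal fibroblast-like, 1102 CPM in lymphatic endothelial-like, 454 CPM in stellate-like, 305 CPM in cholangiocyte-like and 274 CPM in Kupffer-like cells. Sinusoidal endothelial-like cells, high in Timp3, had 19.7 CPM of Timp2. In Kupffer-like cells Timp2 was the highest of the 54 genes and Htra2, at 30.3 CPM, the next. Timp1, the inhibitor known for its induction in injured liver, was low in these healthy livers. It reached 75.3 CPM (63.2 to 88.9) in mesothelial-like and 64.4 CPM (46.4 to 87.1) in portal fibroblast-like cells, against 2.45 CPM in stellate-like cells. In portal fibroblast-like cells 29 of the 42 UMIs of Timp1 came from 1 cell, and without it the level was 20.2 CPM (10.8 to 34.6), against 26.4 CPM (4 UMIs) in lymphatic endothelial-like cells. Timp4 had 10 UMIs in portal and arterial endothelial-like cells and 1 elsewhere among the types.

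Summed over the 4 inhibitors and the 17 metalloproteinases, the UMIs of Timp genes per UMI of Mmp genes ran from 41.0 (32.2 to 52.9) in portal and arterial endothelial-like cells to 0.0974 (0.0532 to 0.166) in neutrophil-like cells. Lymphatic and central vein endothelial-like cells had 33.7 and 30.1, mesothelial-like cells 15.8, sinusoidal endothelial-like cells 9.04, stellate-like cells 4.91, Kupffer-like cells 3.36, portal fibroblast-like cells 2.65 and cholangiocyte-like cells 2.31. The ratio was lower in portal fibroblast-like than in stellate-like cells, although the inhibitors summed to 2754 CPM in portal fibroblast-like and 864 CPM in stellate-like cells. The metalloproteinases summed to 1039 CPM in portal fibroblast-like and 176 CPM in stellate-like cells. The ratio was under 1 in hepatocyte-like (0.581), T-like (0.447) and conventional dendritic-like cells (0.276). These are transcripts, and protein and activity were not measured.

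**Figure D3:**
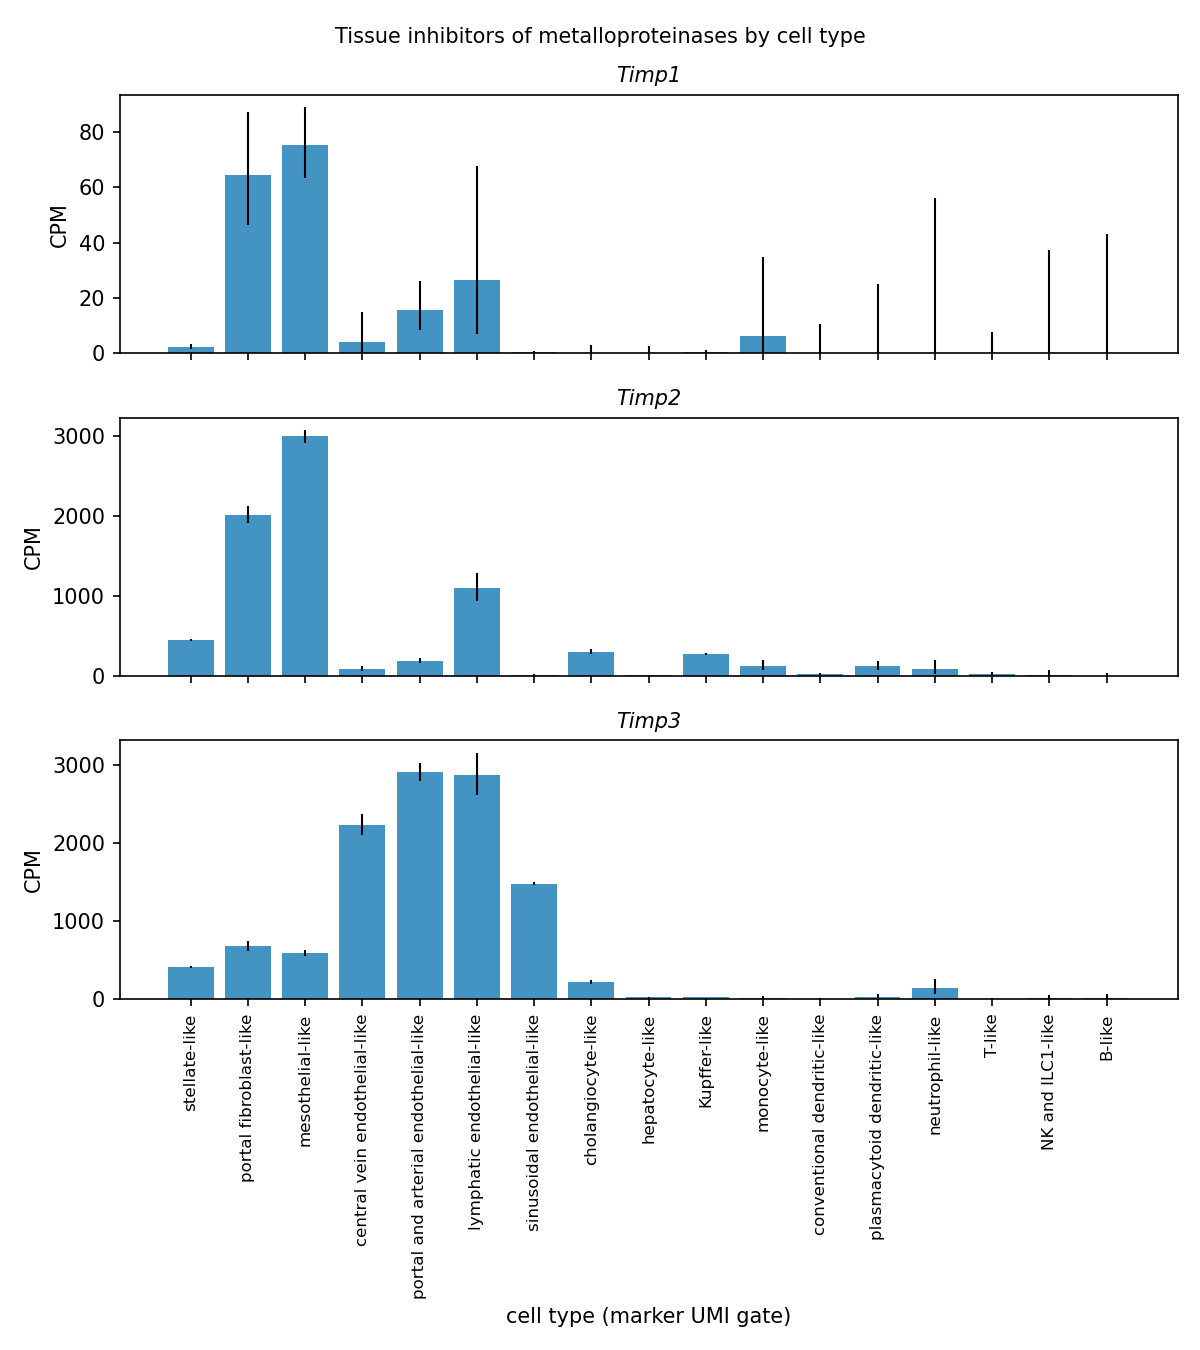
Level of Timp1, Timp2 and Timp3 in the 17 cell types, as bars of CPM from 0 with exact 95% intervals of counting error. Timp3 stands at 1474 to 2904 CPM in the 4 endothelial types, Timp2 at 2989 CPM in mesothelial-like cells, and Timp1 stays at or below 75.3 CPM.

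Among the serine proteases, Htra1 was highest in portal fibroblast-like and mesothelial-like cells. It stood at 390 CPM (343 to 441) in portal fibroblast-like and 322 CPM (296 to 349) in mesothelial-like cells, at 90.8 CPM in portal and arterial endothelial-like cells and at 14.1 CPM in stellate-like cells. Htra2, the mitochondrial member, was the most even of the 3 tested, from 14.6 to 38.4 CPM in stellate-like, portal fibroblast-like, cholangiocyte-like, Kupffer-like and the sinusoidal, central vein and portal and arterial endothelial types, with 91.6 CPM in mesothelial-like and 57.9 CPM in conventional dendritic-like cells. Hepatocyte-like cells were lower, at 8.46 CPM (4.37 to 14.8). Lymphatic endothelial-like, NK and ILC1-like and neutrophil-like cells, whose depth was low, had 0 UMIs of Htra2. The genes of Htra2 and Loxl3 overlap on opposite strands, as do, among others, Htra1 with Fgfr2, Timp3 with Syn3, Timp1 with Syn1 and Adamts7 with Tbc1d2b, and the sources used here do not say whether strand was used in counting.

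The stellate-like cells of replicate 2 were also ordered between the central vein and the portal tract, the ends of the liver lobule. Each cell was scored by 3 central landmarks (Podn, Spon2, Rspo3) minus 4 portal landmarks (Ngfr, Itgb3, Igfbp3, Il34), none of them one of the 54 genes, the cells were divided into 3 ranges of 780 cells each, and the outer ranges were compared within this 1 library. The median depth was 4771 UMIs in the central and 5254 UMIs in the portal range. Of 26 genes with at least 50 UMIs over both ranges, 4 passed 2-fold towards the central range, as did 1.19% of 9733 genes, and 1 towards the portal range, as did 1.23%. The other 21 differed less than 2-fold. The median log2 ratio of central over portal was -0.03 over the 26 genes and 0.00 over all genes. Intervals lay above 1 for 10 genes, below 1 for 10 and held 1 for 6.

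The 4 central genes were Htra3, Loxl1, Adamts5 and Adamtsl2. Htra3 had 285 UMIs in the central range (74.4 CPM) and 56 UMIs in the portal range (13.8 CPM), 5.40-fold (4.05 to 7.33). Loxl1 had 67.4 CPM in the central and 18.9 CPM in the portal range, 3.56-fold (2.75 to 4.65). Adamts5 had 273 CPM in the central and 83.9 CPM in the portal range, 3.26-fold (2.88 to 3.69). These 3 were also led by portal fibroblast-like cells, where each stood above either range. Adamtsl2, led by stellate-like cells, had 446 CPM in the central and 176 CPM in the portal range, 2.53-fold (2.32 to 2.77), and with the portal landmarks alone it stood just under 2-fold (log2 0.99). Both ranges were above the 61.4 CPM of portal fibroblast-like cells.

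Smaller central differences were seen for Adamts2 (1.78-fold, 1.57 to 2.01), Loxl4 (1.69-fold, 1.15 to 2.49), Mmp11 (1.65-fold, 1.07 to 2.58) and Mmp2 (1.58-fold, 1.32 to 1.90). The portal gene was Htra1, with 28 UMIs in the central range (7.31 CPM) and 123 UMIs in the portal range (30.3 CPM), a ratio of 0.24 (0.15 to 0.37). Htra1 and Htra3, both secreted and both highest in portal fibroblast-like cells, thus lay at opposite ends among stellate-like cells. Mmp17 (0.54, 0.31 to 0.93), Adamts14 (0.56, 0.40 to 0.78), Timp3 (0.73, 0.68 to 0.78) and Adamts13 (0.74, 0.62 to 0.87) were lower in the central range but within 2-fold. The chromosome 2 neighbours Adamts13 and Adamtsl2, both led by stellate-like cells, differed in direction along the axis. Adamts1 and Timp2, the highest genes of the type, were close to even, at 0.90 (0.86 to 0.95) and 1.14 (1.06 to 1.21).

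**Figure D4:**
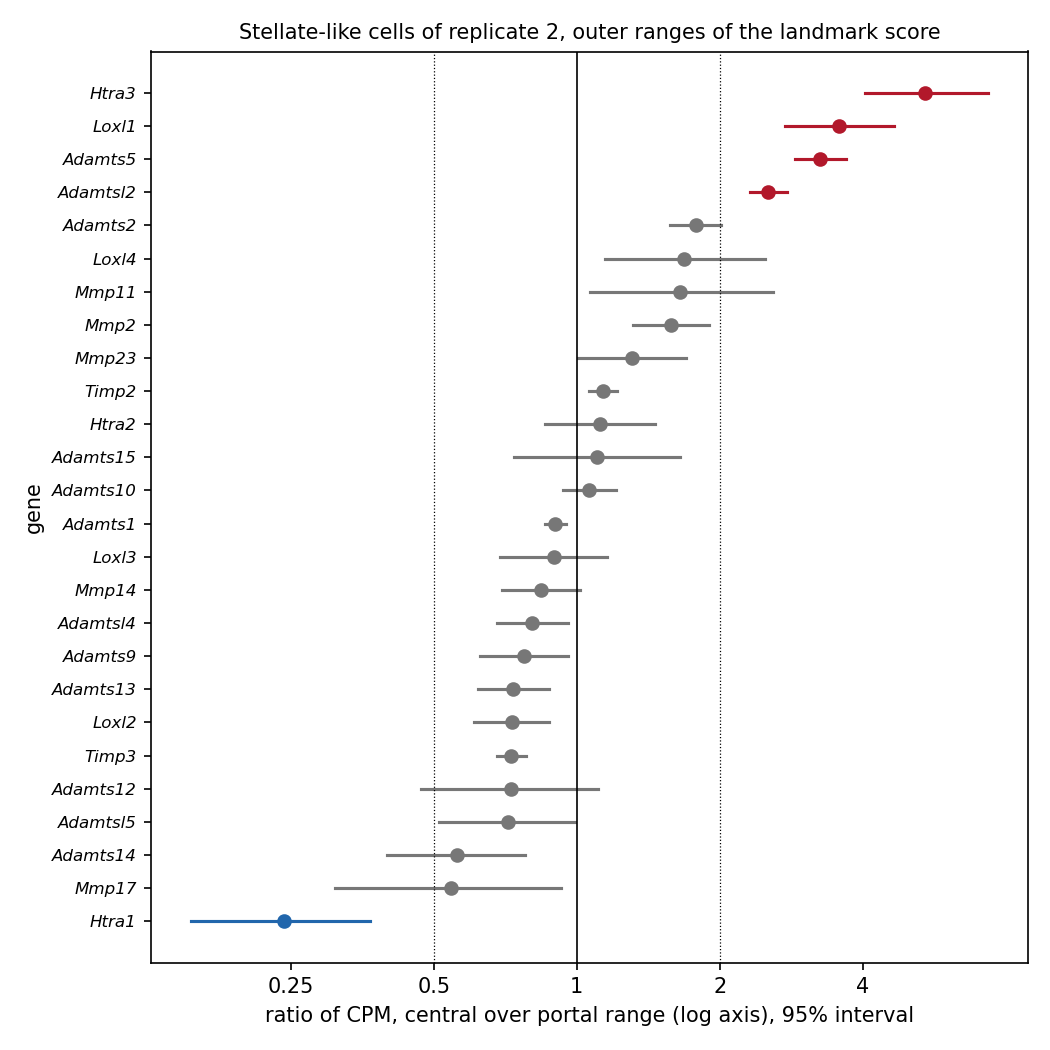
Ratio of CPM in the central over the portal range for the 26 genes with at least 50 UMIs, on a log axis, with exact 95% intervals of counting error, in stellate-like cells of replicate 2 (780 cells per range). Red points pass 2-fold on the central side (Htra3, Loxl1, Adamts5, Adamtsl2), the blue point (Htra1) on the portal side, and grey points lie between the dotted lines at 2-fold.

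Within replicate 1 the endothelial types were compared with sinusoidal endothelial-like cells (2451 cells). Genes needed at least 50 UMIs over the type and the sinusoidal cells together. Most of these UMIs came from the sinusoidal cells, so genes low there were mostly left out. The counts of higher genes are limited by this, and genes high in sinusoidal cells, which are those that can be lower elsewhere, passed more easily. The shares of all genes were counted with the same minimum. How far it raised the counts of lower genes was not tested. In central vein endothelial-like cells (85 cells) 1 of 12 genes with enough UMIs was at least 2-fold higher, against 6.71% of all 10625 genes, and 6 were at least 2-fold lower, against 13.2%. The higher gene was Timp2, at 94.0 CPM in central vein and 19.7 CPM in sinusoidal cells, 4.77-fold (3.40 to 6.56). The lower ones were Adamts4, Adamts7, Adamts9, Loxl2, Loxl3 and Mmp14. Adamts4 and Adamts7 had 1 UMI each in central vein cells, and Mmp14 stood at 62.7 CPM, against 159 CPM in sinusoidal cells, 0.394-fold (0.265 to 0.564).

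In portal and arterial endothelial-like cells (96 cells) 3 of 12 genes were at least 2-fold higher, against 7.03% of 10731 genes, and 4 at least 2-fold lower, against 13.5%. Timp2 reached 193 CPM, against 19.7 CPM in sinusoidal cells, 9.78-fold (8.03 to 11.9). Htra1 reached 90.8 CPM, against 23.6 CPM in sinusoidal cells, 3.86-fold (2.98 to 4.94), and Adamts4 was the third. Adamts7, Loxl2, Loxl3 and Mmp14 were lower, as they were in central vein cells. Adamts4 thus lay above the sinusoidal level in portal and arterial cells and below it in central vein cells. Timp3 was 1.97-fold (1.89 to 2.05) the sinusoidal level in portal and arterial and 1.51-fold (1.42 to 1.61) in central vein cells, so it stayed within 2-fold. Some genes under the UMI minimum, and so not counted, were higher in portal and arterial cells. Lox had 34 UMIs in these cells and 2 in sinusoidal cells (258-fold, 66.2 to 2218). Timp1 had 14 and 5 UMIs, Mmp15 13 and 5, and Adamts5 25 and 23 (16.5-fold, 8.99 to 30.4). They were picked out after their values were seen. In the 25 lymphatic endothelial-like cells 1 of 12 genes was higher, Timp2 (55.9-fold, 45.8 to 68.1), against 11.6% of genes, and 0 were lower, against 17.9%. Under the UMI minimum, Adamtsl1 had 19 UMIs in lymphatic and 1 in sinusoidal cells (125 and 0.0739 CPM). Adamts5, also not counted, had 10 and 23 UMIs (66.0 and 1.70 CPM). Adamts4 and Adamts7 had 0 UMIs in lymphatic cells, a depth at which a level of up to 19.8 CPM is allowed.

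**Figure D5:**
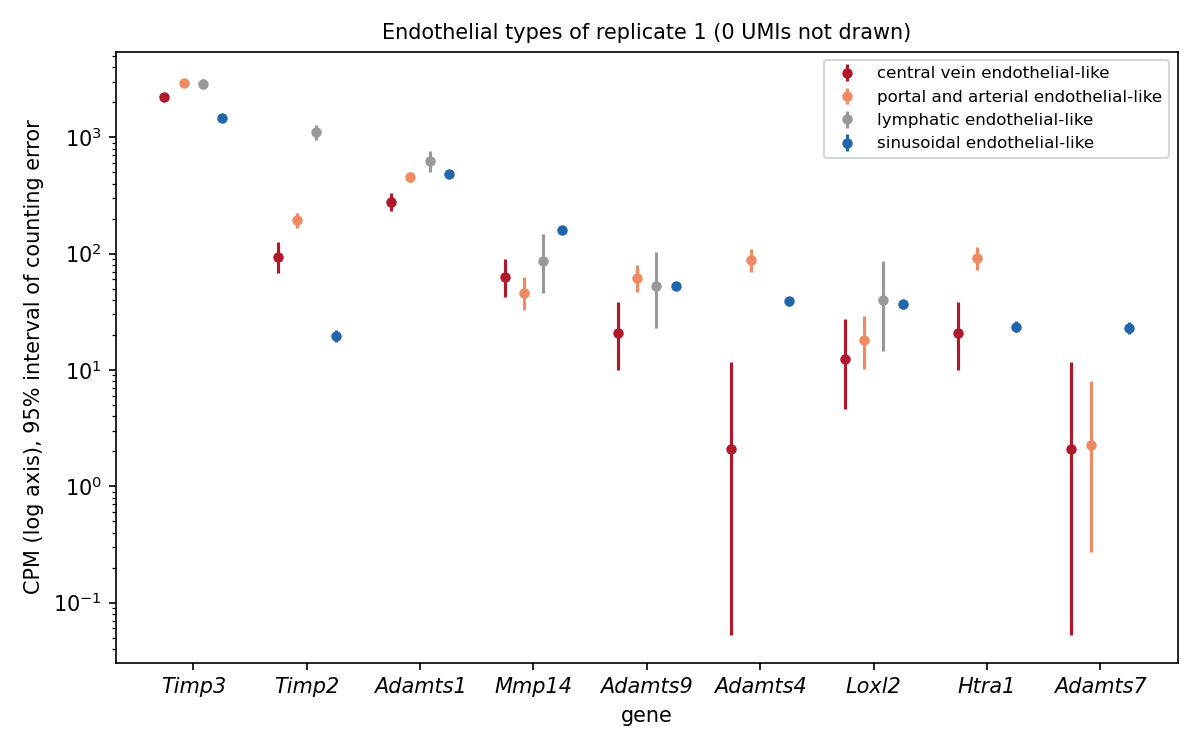
Level of 9 genes in central vein, portal and arterial, lymphatic and sinusoidal endothelial-like cells of replicate 1, in CPM on a log axis with exact 95% intervals of counting error, and with types of 0 UMIs not drawn. Timp2 runs from 1102 CPM in lymphatic to 19.7 CPM in sinusoidal cells, and Mmp14 is highest in sinusoidal cells at 159 CPM.

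Other genes of the same pathways were read in the same way, against 16.5% of all genes led by any type and 1.09% by portal fibroblast-like cells. Of 22 other matrix proteases 20 had enough UMIs and 6 were led by a type, 5 of them by portal fibroblast-like cells. Fap, a stromal serine protease, reached 70.6 CPM there, Ctsk, the collagen-cutting cathepsin, 92.1 CPM and Pcsk6, a proprotein convertase, 503 CPM, while the lysosomal Ctsb was led by Kupffer-like cells at 7751 CPM. Of 11 other inhibitors 10 were tested and 7 led by a type, with no common one: Pzp, a broad protease trap, by hepatocyte-like cells (991 CPM), Spock2 (459 CPM) and Spock3 (42.0 CPM) by mesothelial-like cells, and the cathepsin inhibitor Cst3 by conventional dendritic-like cells (18466 CPM). Of 19 genes of collagen processing 18 were tested and 3 led by a type, a share near that of all genes: P3h4 by mesothelial-like cells (213 CPM), Pcolce2, an enhancer of procollagen C-proteinase, by portal fibroblast-like cells (683 CPM) and Colgalt1, a collagen galactosyltransferase, by Kupffer-like cells (395 CPM). Of 16 substrates and partners 15 were tested and 7 led by a type, 5 of them by portal fibroblast-like cells, among them fibrillin-1 (Fbn1, 1146 CPM), versican (Vcan, 206 CPM) and Thbs2 (172 CPM), and Efemp1 was led by mesothelial-like cells (2482 CPM). The substrate of Adamts13, Vwf, was highest in central vein endothelial-like cells, at 1509 CPM, and next in portal and arterial endothelial-like cells, at 874 CPM.

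Of the 54 genes, 13 had fewer than 50 UMIs over the types and were not compared: Adamts6, Adamts8, Adamts16, Adamts17, Adamts18, Adamts19, Adamts20, Htra4, Mmp13, Mmp16, Mmp25, Mmp28 and Timp4. Adamts17, Adamts18 and Adamts20 were above 3 UMIs in no type, with 5, 3 and 0 UMIs over the types compared. Of the 22 genes that were compared but led by no type, 6 were highest in portal fibroblast-like, 5 in stellate-like and 5 in mesothelial-like cells. The share of all genes highest in each type was not counted. Of the 21 genes for which the depth of the 8 stellate-like cells of replicate 1 would give at least 1 UMI at the level of replicate 2, 18 had that level inside the interval of those 8 cells, and the exceptions were Adamts1, Adamts5 and Adamtsl2, each lower in replicate 1. Many of these intervals are wide, such as 0 to 60.8 CPM for Htra2, Adamts14 and Mmp23, so a level inside them says little. Adamts4, not among the 21, was higher in replicate 1 (98.9 CPM, 36.3 to 215) than in replicate 2 (4.81 CPM).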

How the data were processed

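The authors deposited 1 table of raw UMI counts per gene and cell, and the whole table was used (0 columns of samples were left out). The submitters' processing notes list Cell Ranger 2.1.1, Seurat 3.1 and GRCm38, with no role or order; filters, doublet removal and strand use are not given in the sources used here. The last digit of a barcode was read as the replicate number. Replicate 1 had 7362 cells and 40645060 UMIs (median of kept cells 4719) and replicate 2 had 2341 cells and 11867207 UMIs (5012). Cells under 200 genes or over 20% mitochondrial UMIs were dropped, which removed 597 cells of replicate 1 and 0 of replicate 2.

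A cell got a type if its marker UMIs for that gate were at least 6 (18 for hepatocytes) over at least 3 markers and 2 times those of every other gate. No doublet caller was run. Counts were summed per type and library and scaled to CPM, with exact binomial intervals, and ratios have exact conditional binomial intervals. The planned edgeR test on sums could not be run, since 0 types had 20 cells in both samples. The 54 genes, markers, landmarks, pathway lists and rules were chosen with earlier results of these data known. Values are given for genes led by a type, the 2 highest genes of a type with at least 100 cells, genes at least 2-fold apart along the stellate axis, and up to 4 genes per pathway list; others were named after their values were seen. Calculations used Python 3.11.15, numpy 2.4.6, pandas 2.3.3, scipy 1.17.1 and matplotlib 3.10.9, and were tested on simulated data.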

Additional observations from a re-analysis of the deposited data

Results flagged for a closer look

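Some cells entered no comparison, and a few genes had a higher CPM in them than in every compared type. For Adamts9, Adamts7, Timp4 and Mmp12 the interval overlapped that of the highest compared type. In the 16 smooth muscle-like cells of replicate 1, too few to be compared, Adamts1 reached 1040 CPM (864 to 1242, 122 UMIs), against 749 CPM in stellate-like cells, but 30 of the UMIs came from 1 cell. Adamts9 reached 153 CPM (90.9 to 243) in the same cells, against 89.4 CPM in cholangiocyte-like cells, from 7 cells. In 372 endothelial cells that no subtype gate took, Adamts7 stood at 25.7 CPM (18.7 to 34.5), against 22.9 CPM in sinusoidal endothelial-like cells, and Timp4 at 16.9 CPM (11.3 to 24.3, 29 UMIs in 8 cells), against 11.2 CPM in portal and arterial endothelial-like cells. In 433 ungated cells of replicate 1, Mmp12 stood at 20.3 CPM (14.9 to 27.0), against 14.6 CPM in Kupffer-like cells, with 47 UMIs in 9 cells and 17 in 1 of them. Mmp13 stood at 15.1 CPM (10.5 to 21.0) in the ungated cells, against 2.76 CPM in Kupffer-like cells, with 35 UMIs in 10 cells and 13 in 1 of them. What these cells are was not tested.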

How the results depend on the processing

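Of 240 values of single genes under the alternatives, 210 stayed inside the interval of the reported value, 28 moved further and 2 changed sign: Loxl2 in portal fibroblast-like over the next type with cells thinned to 1500 UMIs (log2 -0.061) and Adamts4 in portal and arterial endothelial-like over the next type with the stellate-like cells of replicate 1 in place of those of replicate 2 (log2 -0.18). With thinned cells, 9 genes were led by a type and 5 by portal fibroblast-like cells, whose share of all genes in that setting was not counted. Not among the 9 were Adamts12, Adamts4, Adamts7, Adamtsl3, Lox, Loxl2, Mmp15, Mmp3, Mmp7 and Mmp8. Fewer UMIs per gene are part of that setting, and no other cause was tested. The number led by stellate-like cells was 0 without replicate 2, 0 in replicate 1 alone with its 8 stellate-like cells, and 1 with types of 0 UMIs set to 3 UMIs. The first 2 numbers follow from the settings, which leave no stellate-like cells or fewer than 20 UMIs of Adamts13 and Adamtsl2, and in replicate 1 alone the log2 ratio to the next type was 8.62 for Adamts13 and 0.10 for Adamtsl2. All 19 genes stayed led with at most 10% mitochondrial UMIs, a gate minimum 2 times as high, every cell weighing the same, or smooth muscle-like cells added, and 14 stayed at 3-fold. With gates 2 times as dominant 17 stayed (not Adamts2 and Mmp7), without the 5% of cells with most UMIs 17 and without the leading type's cell with most UMIs of the gene 17 (in both not Mmp7 and Mmp8), with types of at least 50 cells 17 (not Mmp8 and Mmp9, whose type was left out) and in replicate 1 alone 15 (not Adamts13, Adamtsl2, Adamts4 and Adamts7). With no UMI minimum 27 genes were led, against 38.1% of all genes. Without replicate 1 no comparison between types could be had. Setting 0 UMIs to 3, adding smooth muscle, requiring 50 cells, leaving out the top cell of a gene, replicate 1 alone and central landmarks alone were chosen after seeing the data. No paired analysis was possible because there is 1 group. In the types with few cells, depth limits what can be seen: a 0 allows 45.6 CPM in neutrophil-like and 35.0 CPM in B-like cells.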

Other observations

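Some of the genes with too few UMIs to be compared had a narrow distribution. Mmp25, a lipid-anchored metalloproteinase of leukocytes, had 7 UMIs in neutrophil-like cells (106 CPM) and 16 UMIs in conventional dendritic-like cells (46.4 CPM). Adamts19 had 13 UMIs in portal fibroblast-like and 13 in mesothelial-like cells and 0 in the other types compared, and Mmp16 had 8 UMIs in portal fibroblast-like, 16 in mesothelial-like and 1 in central vein endothelial-like cells. Of the UMIs in the types compared, Adamts8 had 9 of 12 and Adamts16 7 of 11 in portal fibroblast-like cells. The 16 smooth muscle-like cells held 3 UMIs of Adamts8 (25.6 CPM), against 13.8 CPM in portal fibroblast-like cells. These genes were picked out after their values were seen.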
